A study of Mus musculus with 6 samples.

Results

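Small leucine-rich proteoglycans are secreted matrix proteins with a core of leucine-rich repeats, most of which carry chondroitin, dermatan or keratan sulfate chains. They bind collagen fibrils, set fibril diameter and spacing, and hold growth factors in the matrix, and in heart valves they belong to the layered matrix of the leaflet. The set was named as 9 genes, of which 8 had a value among the 18810 genes measured: Dcn, Bgn and Aspn of class I, Lum, Fmod, Omd and Prelp of class II, and Ogn of class III. Kera was not analysed here. Members were taken by gene symbol, without use of their expression.

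RNA was sequenced from atrioventricular canal regions of E15.5 C57BL/6 mouse hearts, dissected to hold the mitral, tricuspid and aortic valves. There were 3 libraries from embryos null for Scx (Scx-/-) and 3 from wild type littermates (Scx+/+), and no cells were sorted. Scx encodes scleraxis, a basic helix-loop-helix factor of tendons and remodeling valves. The comparison of the genotypes asks which genes depend on Scx as valve remodeling begins. With 3 libraries a group, each limma p-value rests on the spread of a gene between libraries, drawn toward that of genes of like level.

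Values are RPKM, reads normalized for exon length and library depth, so levels of different genes can be set side by side. Libraries held 46429972 to 68570997 reads. Fold changes were tested with limma on log2(RPKM + 0.1), which understates the change of low genes. A gene counts as called where its p before adjustment was below 0.05. Where values of single libraries are listed, replicates 1, 2 and 3 of each genotype follow in that order. Of all genes, 731 or 3.89% were called in this way, 2.82% higher and 1.06% lower in Scx-/-, and 0 passed after Benjamini-Hochberg adjustment; a one-way analysis of variance on log2 RPKM gave 862 genes before adjustment. The median log2 fold change of all genes was 0.10, so a gene that followed the bulk of the table lay slightly above 0.

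The libraries differed in ways that genotype did not follow. Scx-/- replicate 3 and Scx+/+ replicate 2 had 1.16 and 1.99 RPKM of the embryonic globin gene Hbb-y against 49.6 to 125 in the other 4 libraries. The same pair had 27283 and 29871 RPKM summed over 10 cardiomyocyte markers against 16721 to 22763 in the other 4, so RNA of myocardium was plentiful in every library, although the dissection aimed to leave myocardium out. Of the 10 markers of valve mesenchyme, all had a value, and their sum ran from 243 to 446 RPKM. Whole-gene Scx stood at 33.6, 18.6 and 82.9 RPKM in Scx-/- against 29.5, 58.3 and 26.0 in Scx+/+. The study checked the null allele by exon 1 of Scx, whereas these values cover the whole gene and do not separate the genotypes, so libraries are named here by their labels.

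The family spanned a wide range of levels. By mean RPKM over the 6 libraries the order was Dcn (144), Lum (71.1), Aspn (42.8), Ogn (25.1), Bgn (12.0), Fmod (0.918), Omd (0.582) and Prelp (0.236). Dcn had a higher mean than 96.1% of all genes and Prelp than 3.51%. Dcn and Lum together made up 63.9% to 78.6% of the summed RPKM of the 8 genes in a library, and Dcn alone 44.7% to 53.0%.

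Of the 8 genes, 5 had a mean level of 1 RPKM or more, and the largest step in the order lay between Bgn and Fmod, where the ratio was 9.24 to 23.7 within a library. The order of neighbours was kept in all 6 libraries for 4 of 7 pairs: Dcn over Lum, Aspn over Ogn, Ogn over Bgn and Bgn over Fmod. Each of these gave p = 0.0312 in an exact permutation test of the sign over 6 libraries, two-sided, which is the smallest p that test allows, and an adjusted p of 0.0547 over the 7 pairs. Lum was above Aspn in 5 of 6 libraries, and Aspn was the higher of the pair in Scx+/+ replicate 2 (exact permutation p = 0.0938, adjusted p = 0.131). Fmod over Omd and Omd over Prelp each held in 4 of 6 libraries (exact permutation p = 0.188 for each), so the place of Omd was within the spread. Fmod was above Prelp in all 6 libraries, by a ratio of 2.94 to 10.02.

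**Figure D1:**
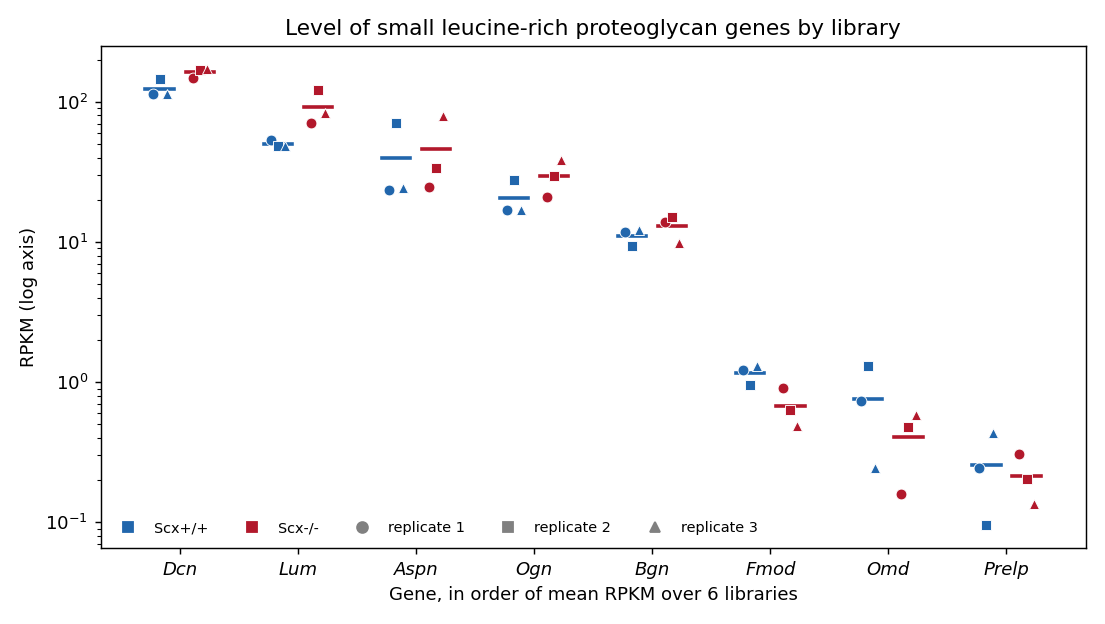
RPKM of the 8 genes on a log axis, in order of mean level, with 1 point per library (blue Scx+/+, red Scx-/-, marker shape by replicate number) and a bar at the mean of 3 libraries. Lum and Dcn have all red points above all blue points, and Fmod has all red points below, while Aspn has 1 high point in each genotype.

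Between genotypes, 1 of the 8 genes was called, Lum, which was higher in Scx-/-. Over the whole table, 3.89% of genes were called, 2.82% higher and 1.06% lower. No gene of the 8 passed at an adjusted p below 0.05 in limma, and over the whole table the smallest such value was 0.173. Of all genes, 9.5% had libraries of the genotypes that did not overlap, 7.19% higher and 2.31% lower in Scx-/-. Among the 8, Dcn and Lum were higher without overlap, Fmod was lower without overlap, and the other 5 overlapped. The median log2 fold change of the 8 genes was 0.22, and 5 of the 8 were above 0 against 63.8% of all genes.

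Dcn and Lum are neighbours on chromosome 10 of mm9. Dcn encodes decorin, which carries a single glycosaminoglycan chain, binds fibrillar collagen and sequesters TGF-beta. It is listed as ENSMUSG00000019929 at chr10:96942245-96980777 on the plus strand. Lum encodes lumican, a keratan sulfate proteoglycan that regulates fibril assembly and is best known from the cornea. It is listed as ENSMUSG00000036446 at chr10:97028135-97035337 on the plus strand, 47.4 kb from Dcn with no protein-coding gene between them.

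Lum stood at 71.1, 122 and 83.8 RPKM in Scx-/- against 53.4, 48.1 and 48.2 in Scx+/+, from 4636 to 16974 reads. Every Scx-/- library was above every Scx+/+ library, and the Scx+/+ libraries lay close together. Lum averaged 92.3 ± 26.6 RPKM in Scx-/- against 49.9 ± 3.02 in Scx+/+ (SD, n = 3), a ratio of 1.85. The log2 fold change was 0.85 (standard error 0.21, limma p = 0.00332, adjusted p = 0.967, exact permutation p = 0.1). The permutation test of 3 libraries against 3 was two-sided and cannot give less than 0.1. Lum was called under all 16 alternatives tried, with log2 fold changes of 0.63 to 1.02. The p-values of these fits, by limma or analysis of variance, ran from 0.00306 to 0.0486, so that of the main fit lay near the lowest. With library medians set to 0, which removes the shift of the whole table, it was 0.74, and 3.43% of all genes were then called, 1.49% higher and 1.94% lower.

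Dcn stood at 148, 170 and 172 RPKM in Scx-/- against 113, 147 and 113 in Scx+/+. The groups did not overlap, but Scx+/+ replicate 2 came within reach of the lowest Scx-/- library. For Dcn the log2 fold change was 0.40 (standard error 0.18, limma p = 0.0533, adjusted p = 0.967, exact permutation p = 0.1), so Dcn was not called. Without Scx+/+ replicate 2 it was 0.53 and was called, where 8.23% of all genes were called, 5.75% higher and 2.49% lower. Without Scx-/- replicate 3 as well it was 0.49 and was called, beside 8.44% of all genes, 6.06% higher and 2.38% lower. It was 0.29 with library medians set to 0 and 0.19 with length and GC trends removed, the lowest of the 16 alternatives, and was called in 4 of the 16.

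The fold change of Lum was larger than that of Dcn, and this difference was read from their ratio. Within a library, the Dcn over Lum ratio stood at 2.09, 1.39 and 2.06 in Scx-/- against 2.12, 3.05 and 2.36 in Scx+/+. The ratio was lower in every Scx-/- library, by a narrow margin at its nearest values, and the difference did not pass its test. An exact permutation test, two-sided, gave p = 0.1, the smallest that 3 libraries against 3 can give, and an adjusted p of 0.622 over the 28 ratios between pairs of the 8 genes, which were added after the values were seen.

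The summed level of epicardial markers also separated the genotypes. Over 7 genes it was 27.3 to 32.4 RPKM in Scx-/- and 21.1 to 23.9 RPKM in Scx+/+. This rested on Tcf21, without which the sums of the genotypes overlapped. Tcf21 stood at 8.61, 9.20 and 10.4 RPKM in Scx-/- against 5.09, 7.38 and 6.56 in Scx+/+. Of the 7, Tcf21 (0.57) and Upk1b (0.61) were called higher on the log2 scale, without overlap. The others overlapped: Msln (0.97), Krt19 (0.25), Upk3b (0.22), Wt1 (0.15) and Lrrn4 (-0.26). Upk3b stood at 7.87, 8.66 and 4.47 RPKM in Scx-/- against 5.62, 4.77 and 7.18 in Scx+/+. Sums of other marker lists were also looked at. With labels set at random, a sum separates 3 libraries from 3 with a probability of 0.1. Of the 10 valve mesenchyme markers, whose median log2 fold change was 0.41, Prrx1 and Prrx2 were higher without overlap and not called, Snai2 was called lower, and the summed levels overlapped at 300 to 446 RPKM in Scx-/- and 243 to 325 RPKM in Scx+/+. Their part in the Lum and Dcn values was not tested. In tissue of mixed cells, more cells of a type and more RNA per cell cannot be told apart.

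**Figure D2:**
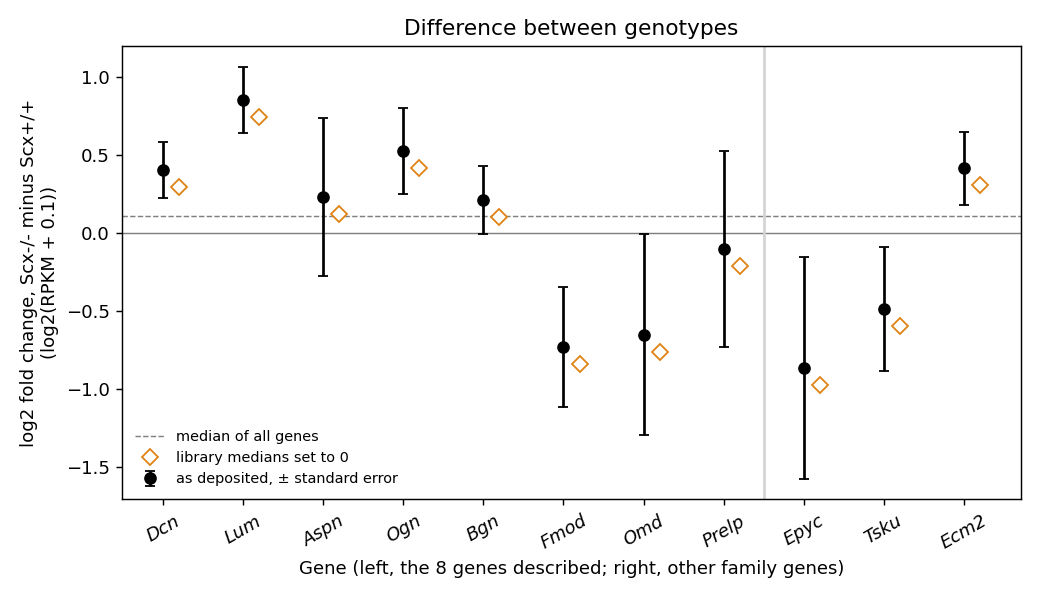
Log2 fold change, Scx-/- minus Scx+/+, of the 8 genes and of 3 other genes of the family, with bars of ± 1 standard error (black) and the value with library medians set to 0 (orange diamonds); the dashed line is the median of all genes. Lum stands highest at 0.85 and Fmod lowest of the 8 at -0.73, and the bars of Aspn, Omd and Prelp are the longest of the 8.

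Fmod encodes fibromodulin, a keratan sulfate proteoglycan of tendon and cartilage that shares a collagen binding site with lumican. It is listed as ENSMUSG00000041559 at chr1:135933831-135944854 on the plus strand, with Prelp as its nearest neighbour in the family, 115.8 kb away. Fmod stood at 0.902, 0.632 and 0.486 RPKM in Scx-/- against 1.23, 0.951 and 1.31 in Scx+/+, from 96 to 297 reads. All Scx-/- libraries were below all Scx+/+ libraries, by a small gap between Scx-/- replicate 1 and Scx+/+ replicate 2.

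The log2 fold change of Fmod was -0.73 (standard error 0.38, limma p = 0.0878, adjusted p = 0.967, exact permutation p = 0.1), the opposite direction from Lum. It was called in 6 of 15 alternatives, among them library medians set to 0, where it was -0.84. Within a library, the Lum over Fmod ratio stood at 78.8, 193 and 172 in Scx-/- against 43.4, 50.6 and 36.8 in Scx+/+. Of the 28 ratios between members, 4 separated the genotypes, and 3 of these had Fmod as the lower gene: Dcn, Lum and Bgn over Fmod. Each of the 3 gave p = 0.1 in the exact permutation test of 3 against 3 (adjusted p = 0.622). With labels set at random, a ratio separates with a probability of 0.1. Dcn and Lum over Fmod had to separate, because the single genes did so in opposite directions, so these ratios add no further evidence.

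Scleraxis belongs to a class of factors that bind E-boxes, written CANNTG, and the stretch before the start site was read for these letters. The RefSeq promoter table of GRCm38.p6 held 6 of the 8 genes (Fmod, Prelp, Aspn, Omd, Ogn and Bgn), and each 250-base stretch was placed in mm9 by exact match. The motif reads the same on both strands. Over 32851 such stretches, 66.2% held at least 1 CANNTG and 12.2% at least 3. Among the 6 genes, Ogn held 3, Fmod, Aspn and Bgn 1 each, and Prelp and Omd none. Shown 5′ to 3′ are Fmod, the gene that was lower without overlap in Scx-/-, and the cluster neighbours Aspn and Ogn, with E-boxes in capitals, at chr1:135933581-135933830, chr13:49639562-49639811 and chr13:49703134-49703383 of mm9, all on the plus strand.
Fmod: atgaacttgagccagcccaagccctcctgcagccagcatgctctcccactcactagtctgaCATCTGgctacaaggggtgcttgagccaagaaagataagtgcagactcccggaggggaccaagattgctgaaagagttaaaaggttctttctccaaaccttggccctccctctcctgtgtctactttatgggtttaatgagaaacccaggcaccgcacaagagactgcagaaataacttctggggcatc
Aspn: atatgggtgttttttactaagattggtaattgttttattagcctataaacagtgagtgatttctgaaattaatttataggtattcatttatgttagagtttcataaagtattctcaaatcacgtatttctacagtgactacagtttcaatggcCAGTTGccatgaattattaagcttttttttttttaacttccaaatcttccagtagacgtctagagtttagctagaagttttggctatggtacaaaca
Ogn: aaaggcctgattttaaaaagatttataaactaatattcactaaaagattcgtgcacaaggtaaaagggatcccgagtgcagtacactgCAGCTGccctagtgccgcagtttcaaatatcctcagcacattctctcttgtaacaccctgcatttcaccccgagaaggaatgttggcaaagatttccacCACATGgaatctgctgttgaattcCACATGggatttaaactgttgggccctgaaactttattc
A match of letters is a description and no evidence of binding. The E-box of Fmod began 189 bases before the RefSeq start and that of Aspn 97 bases before it, and those of Ogn 162, 63 and 39 bases before it.

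Aspn, Omd and Ogn lie in a row on chromosome 13 with Ecm2, each 11.7 to 15.5 kb from the next with no protein-coding gene lying wholly between them. All lie within Cenpp, a centromere protein gene on the minus strand from 49559396 to 49748124, whose exons share 0 bases with those of Aspn, Omd and Ogn in the annotation. Aspn encodes asporin, which lacks the glycosaminoglycan attachment site of decorin and binds TGF-beta and collagen. Ogn encodes osteoglycin, also called mimecan, and Omd encodes osteomodulin, a keratan sulfate protein of bone.

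Aspn (ENSMUSG00000021388, chr13:49639812-49662926, plus strand) stood at 24.5, 33.9 and 79.4 RPKM in Scx-/- against 23.6, 70.8 and 24.4 in Scx+/+. Its high libraries were Scx-/- replicate 3 and Scx+/+ replicate 2, 1 of each genotype, and the groups overlapped. The log2 fold change was 0.23 (standard error 0.51, limma p = 0.66, adjusted p = 0.98, exact permutation p = 0.5). It was -0.26 without Scx-/- replicate 3 and 0.75 without Scx+/+ replicate 2, and it was 0.26 without both.

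The pair of libraries high in Aspn was also the pair with the most cardiomyocyte marker RPKM, the most whole-gene Scx and the least Hbb-y. Postn, which encodes the matrix protein periostin of valve mesenchyme, stood at 216, 296 and 387 RPKM in Scx-/- against 195, 271 and 161 in Scx+/+. Postn was thus highest in the same library of each genotype as Aspn. The part of tissue composition in the Aspn values was not tested.

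Ogn (ENSMUSG00000021390, chr13:49703440-49719869, plus strand) stood at 21.0, 29.4 and 38.8 RPKM in Scx-/- against 17.1, 27.7 and 16.9 in Scx+/+. Within each genotype Ogn was highest in the library where Aspn was highest. The log2 fold change was 0.53 (standard error 0.27, limma p = 0.0883, adjusted p = 0.967, exact permutation p = 0.2), and the groups overlapped through Scx+/+ replicate 2. Without that library it was 0.76 and was called, and without Scx-/- replicate 1 it was 0.75 and was called, beside 3.07% of all genes, 1.94% higher and 1.14% lower. It was 0.31 without Scx-/- replicate 3 and 0.34 with length and GC trends removed, and it was called in 2 of the 16 alternatives.

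Omd (ENSMUSG00000048368, chr13:49678135-49687978, plus strand) lies between Aspn and Ogn but was far lower than either, at 0.160, 0.480 and 0.581 RPKM in Scx-/- against 0.728, 1.30 and 0.244 in Scx+/+. It rested on 13 to 94 reads a library. The groups overlapped, and the log2 fold change was -0.65 (standard error 0.64, limma p = 0.338, adjusted p = 0.967, exact permutation p = 0.4).

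**Figure D3:**
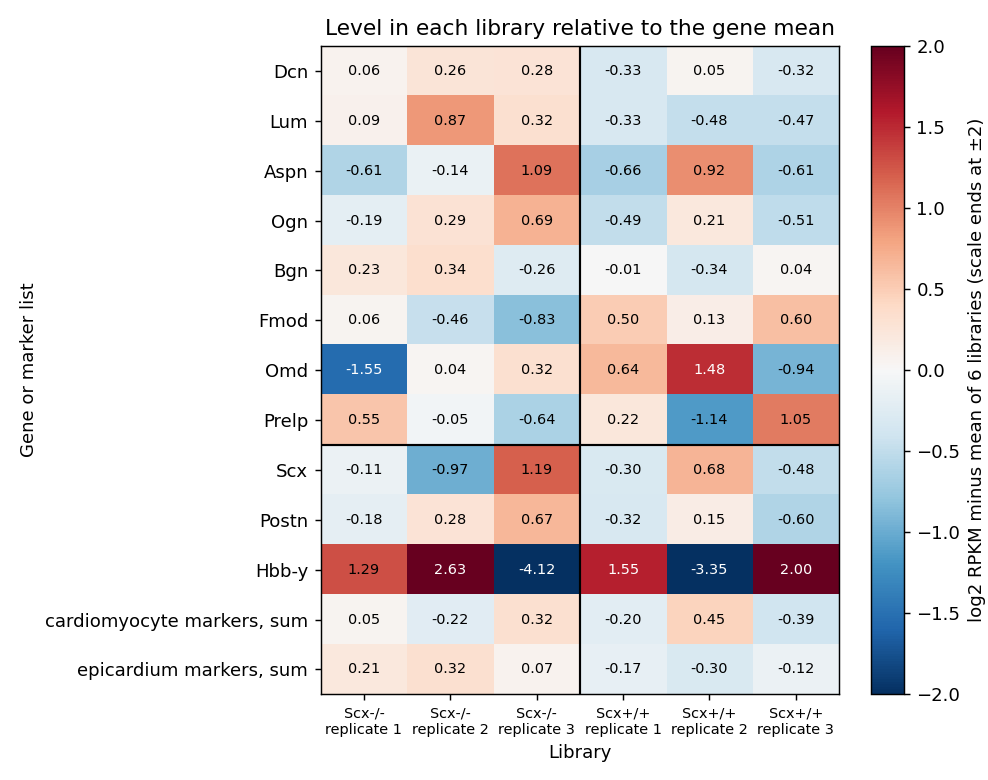
Log2 RPKM of each gene or summed marker list in each library, minus its mean over the 6 libraries, with the 8 genes above the horizontal line and Scx, Postn, Hbb-y and 2 marker sums below it; red is above the mean, blue below, and the color scale ends at ±2. Aspn is 1.09 and 0.92 in Scx-/- replicate 3 and Scx+/+ replicate 2 and below 0 in the other 4, and Scx and the cardiomyocyte sum are highest in the same pair.

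Bgn encodes biglycan, a class I relative of decorin with a pair of glycosaminoglycan chains. It is listed as ENSMUSG00000031375 at chrX:70728941-70741272 on the plus strand. Bgn stood at 13.9, 15.0 and 9.87 RPKM in Scx-/- against 11.7, 9.30 and 12.1 in Scx+/+. Its lowest library in each genotype was the one in which Aspn was highest. The groups overlapped, and the log2 fold change was 0.21 (standard error 0.22, limma p = 0.356, adjusted p = 0.967, exact permutation p = 0.4).

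Prelp encodes a proline- and arginine-rich protein that anchors basement membranes to connective tissue. It is listed as ENSMUSG00000041577 at chr1:135806881-135817991 on the minus strand. Prelp was 0.307, 0.202 and 0.134 RPKM in Scx-/- replicates 1 to 3, and 0.244 and 0.432 RPKM in Scx+/+ replicates 1 and 3. Scx+/+ replicate 2 was listed at 0.0949 RPKM, the value that stands in the table for low levels. The other 5 libraries gave it 29 to 107 reads, and the log2 fold change was -0.10 (standard error 0.63, limma p = 0.874, adjusted p = 0.996, exact permutation p = 0.9). Prelp shares 350 exon bases with Gm15851, a processed transcript on the plus strand, and whether the counting used strand is not given in the sources used here.

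Dcn, Lum, Ogn and Bgn had log2 fold changes above 0 under all 16 alternatives, and Fmod and Omd below 0 under the 15 that could be run on genes of their level. For Bgn the values ran from 0.09 to 0.39, for Omd from -1.20 to -0.19, and neither was called in any of them. Aspn and Prelp changed sign when single libraries were left out.

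**Figure D4:**
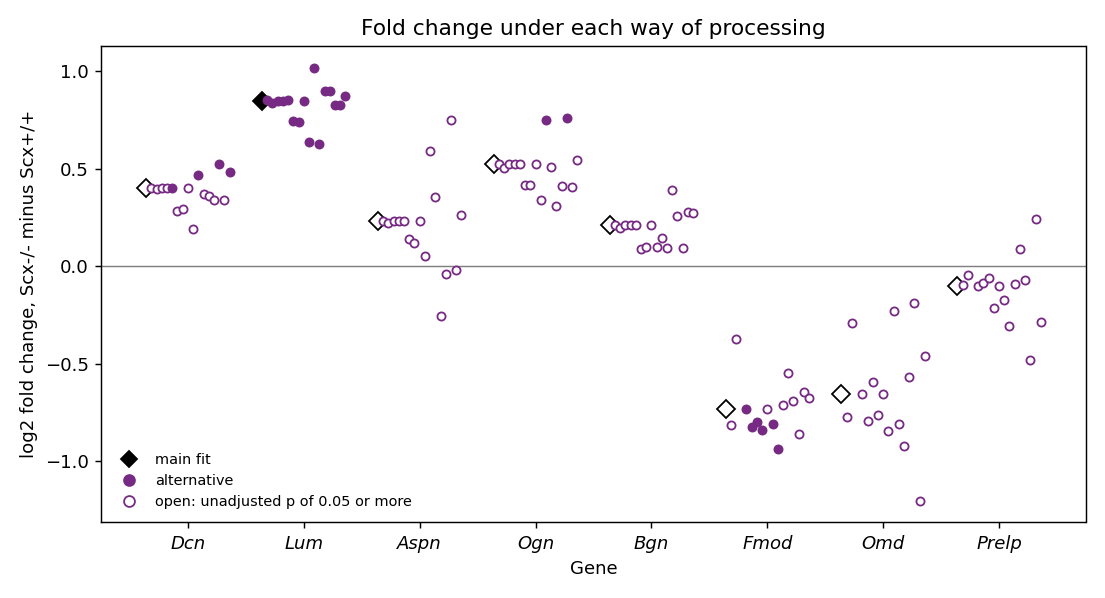
Log2 fold change, Scx-/- minus Scx+/+, of the 8 genes in the main fit (black diamonds) and under each alternative (purple circles), filled where the unadjusted p was below 0.05 and open otherwise. All points of Lum are filled and lie between 0.63 and 1.02, and points of Aspn and Prelp fall on both sides of 0.

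Correlations over the 6 libraries were computed for all 28 pairs on the log2 scale, and none had an adjusted p below 0.05. The strongest was Dcn with Fmod, at Pearson r = -0.94 (exact permutation p = 0.0139, adjusted p = 0.13) and Spearman rho = -0.94 (exact permutation p = 0.0167, adjusted p = 0.233), and r was -0.97 without the 2 libraries farthest from the median of Dcn. Within genotypes, after removal of the group means, it was -0.82. Ogn with Fmod gave r = -0.94 (exact permutation p = 0.00417, adjusted p = 0.117) and rho = -0.94 (exact permutation p = 0.0167, adjusted p = 0.233), and -0.82 without the 2 farthest libraries. The highest positive r was that of Dcn with Ogn, on different chromosomes, at 0.92 (exact permutation p = 0.00833, adjusted p = 0.117), and 0.92 within genotypes. Aspn with Ogn gave r = 0.86 (exact permutation p = 0.0361, adjusted p = 0.201), and 0.97 within genotypes. The neighbours Dcn and Lum gave r = 0.78 (exact permutation p = 0.0806, adjusted p = 0.251) and rho = 0.71 (exact permutation p = 0.136, adjusted p = 0.318), with 0.81 without the 2 farthest libraries. For Dcn with Lum the value within genotypes was 0.22.

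The genes whose pattern was most like the mean of the 8 standardized log2 values were ranked by Pearson r over 6 libraries among 13822 genes whose mean level was 1 RPKM or more. They were Lrrc17 (r = 0.99), Metap1d (0.98), the pseudogene Gm15186 (0.97), Sulf1 (0.97) and the pseudogene Gm12912 (0.96). Sulf1 encodes an extracellular heparan sulfate 6-O-endosulfatase. It stood at 18.1, 25.6 and 21.0 RPKM in Scx-/- against 16.3, 18.3 and 17.4 in Scx+/+. With 6 libraries, 69 of the 13822 genes had r above 0.9. The mean joins genes of opposed patterns, such as Dcn and Fmod (r = -0.94), so likeness to it is not likeness to each of the 8.

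Of 9 further genes of the family, 3 had a value and none was called. Epyc, which encodes epiphycan of cartilage and lies on the far side of Kera from Lum, stood at 0.0949, 0.210 and 0.261 RPKM in Scx-/- against 0.677, 0.0949 and 0.774 in Scx+/+, where 0.0949 is the value for low levels. Its log2 fold change was -0.87 (standard error 0.71), and without Scx+/+ replicate 2 it was -1.56 and was called. It was -0.56 without Scx+/+ replicate 1 and -0.48 without Scx+/+ replicate 3, and was called in 2 of 15 alternatives. Tsku, which encodes the secreted signaling modulator tsukushi, was 0.503 ± 0.0649 RPKM in Scx-/- against 0.745 ± 0.0852 in Scx+/+ (SD, n = 3), lower without overlap and not called in limma. Ecm2, the neighbour of Aspn, was 7.99 ± 2.01 and 5.84 ± 0.149 RPKM (SD, n = 3), with overlap and not called in limma. Optc, Chad, Nyx, Podn, Podnl1 and Chadl were not analysed here.

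The collagens that these proteins bind were not called in either direction, 0 of 6. With 3.89% of all genes called, small counts in lists of this size, here and below, say little about their genes. Their median log2 fold change was -0.17. Col3a1, the highest, was 124 ± 26.9 RPKM in Scx-/- against 125 ± 7.46 in Scx+/+ (SD, n = 3), and Col5a2 was 30.2 ± 7.71 and 30.6 ± 2.19 RPKM (SD, n = 3). Col1a1 stood at 7.34, 8.09 and 7.70 RPKM in Scx-/- against 9.91, 8.36 and 15.8 in Scx+/+, lower without overlap (-0.50 on the log2 scale).

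Enzymes that build the chains were likewise not called, 0 of 20 for chondroitin and dermatan sulfate and 0 of 6 for keratan sulfate. The highest of the former, Chsy1 and Fam20b, were 16.3 ± 3.60 and 13.8 ± 1.98 RPKM in Scx-/- against 15.0 ± 3.56 and 13.6 ± 1.18 RPKM in Scx+/+ (SD, n = 3). Dse, the epimerase that turns chondroitin into dermatan sulfate, stood at 7.71, 9.49 and 6.27 RPKM in Scx-/- against 6.08, 4.56 and 5.78 in Scx+/+, higher without overlap and not called. Of the keratan sulfate enzymes, the highest was B4galt1 at 8.81 ± 1.64 RPKM in Scx-/- against 9.54 ± 0.910 in Scx+/+ (SD, n = 3). B4galt4 was 7.32 ± 1.53 and 5.32 ± 0.607 RPKM (SD, n = 3), higher without overlap and not called. Col1a1, Dse, B4galt4, Adamts9 and Hapln1 are named because their groups did not overlap, which was seen after the values.

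Of 10 genes listed for proteases that cleave members or their partners, a protease enhancer among them, 1 was called higher and none lower. It was Htra1, a secreted serine protease that degrades decorin and biglycan, at 10.2, 15.1 and 13.1 RPKM in Scx-/- against 7.43, 9.37 and 9.58 in Scx+/+. The groups did not overlap, and the log2 fold change was 0.53 (standard error 0.21, limma p = 0.0332, adjusted p = 0.967, exact permutation p = 0.1), which was called in 7 of 16 alternatives. Mmp2 and Adamts1, the highest of the list, were 24.7 ± 8.59 and 17.6 ± 2.24 RPKM in Scx-/- and 18.6 ± 3.28 and 18.1 ± 2.77 RPKM in Scx+/+ (SD, n = 3). Adamts9, a versican-cleaving protease, was 7.19 ± 0.130 and 8.41 ± 0.237 RPKM (SD, n = 3), lower without overlap and not called.

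Ligands and receptors that members bind were not called, 0 of 12, nor were hyaluronan-related genes, 0 of 4. Kdr, the receptor VEGFR-2 of endothelium, was 18.8 ± 4.40 RPKM in Scx-/- against 23.3 ± 1.09 in Scx+/+ (SD, n = 3), and Wisp1, a matricellular protein of the CCN family, was 10.4 ± 0.630 and 9.88 ± 0.617 RPKM (SD, n = 3). Vcan, which encodes versican, stood at 34.7, 44.7 and 24.9 RPKM in Scx-/- against 43.5, 21.2 and 43.1 in Scx+/+. It was lowest in the same library of each genotype in which Aspn was highest. Cd44 was 4.01 ± 1.45 and 3.67 ± 1.27 RPKM (SD, n = 3). Hapln1, which encodes a link protein, was 2.75 ± 0.469 and 2.17 ± 0.0799 RPKM (SD, n = 3), higher without overlap and not called.

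Among markers of other cells in the dissected region, 0 of 8 endothelial, 0 of 6 smooth muscle, 0 of 9 erythroid, 0 of 4 cartilage and 0 of 2 tendon genes were called. The 2 highest of each had log2 fold changes of 0.02 and 0.20 (Pecam1 and Tek), 0.17 and 0.52 (Acta2 and Tagln), 0.24 and 0.25 (Hba-a1 and Hba-a2), 0.19 and -0.11 (Col9a1 and Col9a2), and 0.01 and -0.67 (Thbs4 and Comp). Of 10 valve mesenchyme genes, Snai2 was called lower (-0.80) and none higher, with Prrx1 at 0.46 and Tbx20 at 0.03 on the log2 scale. Prrx2 was at 1.19, with Scx+/+ replicate 2 listed at the value for low levels. Of 10 cardiomyocyte genes, with a median of 0.08, Ryr2 was called lower (-0.46), and the highest, Myl2 and Tnnt2, had log2 fold changes of 0.22 and 0.23. Myh7 stood at 2313, 1923 and 2148 RPKM in Scx-/- against 2824, 2826 and 2380 in Scx+/+, lower without overlap and not called. Tagln of smooth muscle was higher without overlap and not called. Of 8 macrophage genes, with a median of 0.03, Cd68 was called higher (1.48), at 0.0949 to 1.54 RPKM over the 6 libraries, while the highest, Lyz2 and C1qa, had log2 fold changes of -0.08 and 0.45. Of 4 melanocyte genes, Dct (0.90) and Mlana were called higher, and Mlana was listed at the value for low levels in all 3 Scx+/+ libraries; Pmel was 0.15. The melanocyte sum was 3.82 to 6.35 RPKM in Scx-/- and 2.31 to 3.06 RPKM in Scx+/+, and its part in the values of the 8 genes was not tested. Markers of cartilage, a tissue rich in Fmod and Prelp, summed to 1.65 to 3.74 RPKM in a library.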

How the data were processed

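Per the labels and the methods of the study, 1 library was made from each of 6 dissected regions. The authors aligned reads to mm9 with TopHat 1.4.1, calculated RPKM per Ensembl gene with easyRNASeq, filtered genes on low reads and replaced low values, found in the deposited RPKM as 0.0949. The members and lists here were chosen with earlier results of these data known. Named from each list were the called genes and the 2 highest in mean RPKM. After the values were seen, pathway genes without overlap, the other epicardial markers, Prrx1, Prrx2, Myh7 and Hbb-y were added. 1 marker list is not reported here. Symbols, exon lengths and GC came from GENCODE gene models for mm9 (18695 of 18810 identifiers matched). Whole reads, within 0.1 read, were recovered for 98.5% to 98.6% of values under 1000 reads, to describe depth. No count test was run.

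Genotypes were compared on log2(RPKM + 0.1) by limma (version 3.58.1, R 4.3.3), whose moderated variances followed an intensity trend, without covariates. P-values were adjusted by Benjamini-Hochberg for all 18810 genes, and the step was tested on simulated data. Alternatives were pseudocounts of 0.01 and 1, a mean of at least 1 RPKM, no trend, one-way analysis of variance, quantile normalization, library medians set to 0, a replicate block, removal of length and GC trends, and each library left out. Leaving out Scx-/- replicate 3 with Scx+/+ replicate 2 was added after seeing the data.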

Additional observations from a re-analysis of the deposited data

How the results depend on the processing

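The count of genes called among the 8 was 1 in the main fit. Fmod joined Lum, for a count of 2, without an intensity trend and with quantile normalization (645 and 705 of all genes called). The same held with library medians set to 0 and with length and GC trends removed (646 and 661 of all genes called). By one-way analysis of variance the count was 3 (Dcn, Lum and Fmod), beside 862 of all genes. It was 2 without both Scx-/- replicate 3 and Scx+/+ replicate 2, where Dcn joined Lum. Leaving out each library in turn gave 1 to 4, with 4 without Scx-/- replicate 1 (Dcn, Lum, Ogn and Fmod) and 3 without Scx+/+ replicate 2 (Dcn, Lum and Ogn). The count over all genes went from 731 to 1549 without Scx+/+ replicate 2, with a lowest value of 539 over single libraries, and to 1587 without both libraries. The log2 fold change of Aspn ran from -0.26 to 0.75 and that of Prelp from -0.48 to 0.24 with single libraries left out; Aspn fell below 0 without Scx-/- replicate 3 (-0.26), Scx+/+ replicate 1 (-0.04) or Scx+/+ replicate 3 (-0.02), and Prelp rose above 0 without Scx-/- replicate 3 (0.09) or Scx+/+ replicate 3 (0.24). The median over the 8 genes was 0.08 to 0.40 over the alternatives. With single libraries left out, calls numbered 0 to 2 for collagens, chain synthesis of chondroitin and dermatan sulfate, the protease list, and ligands and receptors. They numbered 0 to 1 for hyaluronan-related genes and other family genes, and 0 for keratan sulfate synthesis. Calls were lost in 6 of the alternatives for Ryr2, Upk1b and Tcf21, 7 for Cd68, 8 for Snai2 and 9 for Htra1 and Dct. The cause of these moves was not tested.

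Replicate numbers were not used to pair the libraries in the main fit. Same-numbered libraries had correlations of deviations from the group means of 0.09, -0.22 and -0.19 over 13827 genes. The highest was 0.32, between Scx-/- replicate 3 and Scx+/+ replicate 2. Subtracting means of 3 libraries ties these correlations to each other, so they cannot decide whether same-numbered libraries shared a litter or processing. With a replicate block, 1 of the 8 genes and 573 of all genes were called. Fmod, Omd and Prelp rest on few reads, and changes in them smaller than their spread were not detectable.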
